A study of Anthurium andraeanum with 18 samples.

Results

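The genes described here are an ACC synthase (ACS1, TRINITY_DN41499_c0_g3), an ACC oxidase (ACO1, TRINITY_DN50246_c0_g1) and an EIN3-binding F-box protein (EBF1, TRINITY_DN54700_c2_g2) in leaves of Anthurium andraeanum, a tropical ornamental plant. They are 3 of 132108 transcript groups assembled without a genome, each called a gene here. The 3 genes were chosen by identifier because of their measured values in these same 18 libraries, so their levels and ratios are a description and no test is given for them. Leaves came from full-flowering plants of the cultivars Oregon and Fantasy Love, kept in chambers with equal 12 h periods of light and dark. Each cultivar gave 3 libraries at each of 25 °C, 6 °C and 4 °C. Controls were kept at 25 °C throughout. For the Oregon controls the labels disagree on the time, with 0 days in one field and 3 days in the titles. Titles of the Fantasy Love controls give no time and say only control, and the field gives 0 days. When the controls were sampled relative to the cold leaves is therefore unclear, and every comparison with 25 °C rests on them. Cold-treated plants were first held at 15 °C and moved to 6 °C and later to 4 °C, spending 3 days at each step, so the leaves taken at 4 °C had also been cold for longer than those taken at 6 °C. The titles call the replicate libraries biological replicates, but the sources used here do not say whether they are separate plants. P-values therefore measure only the spread between these samples, and how far that is a spread between plants is not known.

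Plants make ethylene, a gaseous hormone of stress, ripening and senescence, from methionine. Methionine is converted to S-adenosylmethionine, ACC synthase turns that into ACC (1-aminocyclopropane-1-carboxylate), and ACC oxidase releases ethylene together with cyanide, which cyanoalanine synthase removes. In Arabidopsis, receptors bound to no ethylene keep the kinase CTR1 active, which blocks EIN2. When ethylene binds, EIN2 lets the transcription factors EIN3 and EIL1 accumulate, while the F-box proteins EBF1 and EBF2 mark EIN3 for degradation.

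The libraries held 14769909 to 21911024 estimated counts. Levels below are CPM (counts relative to the library's total, scaled by TMM), as the mean ± SD of n = 3 libraries unless each library is given. Markers of leaf mesophyll were far lower in the cold. The summed level of 26 such genes (light-harvesting and Rubisco small subunit proteins) was 69800 to 91000 CPM in the 6 controls. It was 3860 to 11600 CPM in the 12 cold libraries. In RNA from whole leaves, fewer cells of a type and less RNA per cell cannot be told apart. Of 15 floral genes at least 13 were detected in every group, with sums of 92.1 to 226 CPM, far below the mesophyll sums of every group. Fantasy Love at 6 °C replicate 2 stood apart, with 59649 transcript groups detected against 66064 to 98534 in the other 17 libraries, and with 4% of its counts in genes named like ribosomal DNA against 0.179% to 0.99%. The median gene was higher in the cold by 0.30 to 0.39 on the log2 scale under TMM and by 0.56 to 0.87 with library size alone, so small differences depend on the scaling.

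ACS1 was not counted in any of the 6 control libraries. This enzyme makes ACC, usually taken as the limiting step of ethylene formation. In Oregon at 6 °C the 3 libraries held 24.2, 43.9 and 4.05 CPM, from about 397, 775 and 85 estimated counts. All 3 lay above every library of the other 5 groups, the lowest of them only just. The mean was 24 ± 19.9 CPM, at least 365-fold higher than in the Oregon controls, where the bound rests on 3 counts over the whole group. In Oregon at 4 °C, replicate 1 held 3.92 CPM and the other 2 libraries held 0. The group mean of 1.31 ± 2.26 CPM (65 counts in all) was 18.4-fold lower than at 6 °C, and the 2 groups did not overlap. Without replicate 1 no count remained at 4 °C. In Fantasy Love, ACS1 appeared only in replicate 3 of each cold group, at 1.32 CPM at 6 °C and 0.416 CPM at 4 °C. These are 24 and 10 counts, which set the Fantasy Love means at least 7.65-fold and at least 2.41-fold above their controls. At 6 °C the mean in Fantasy Love, 0.44 ± 0.762 CPM, was 54.6-fold lower than in Oregon. These bounds cover counting error only.

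ACO1 was low in all controls and high in all cold libraries. Its protein oxidises ACC to ethylene. In the Oregon controls it stood at 5.03, 7.37 and 15.4 CPM. At 6 °C the Oregon libraries held 2150, 2430 and 1690 CPM, and at 4 °C they held 2920, 1160 and 953 CPM. The groups at 6 °C and 4 °C overlapped each other and were far from the controls: the mean was 226-fold higher at 6 °C (log2 ratio 7.82 ± 0.88, SD) and 181-fold higher at 4 °C (7.50 ± 1.25). In the Fantasy Love controls ACO1 was at 2.91, 2.93 and 1.72 CPM. At 6 °C it reached 703, 302 and 2160 CPM, and at 4 °C 456, 1120 and 1040 CPM. Again both cold groups overlapped and lay wholly above the controls, with means 418-fold (log2 ratio 8.71 ± 1.39) and 345-fold (8.43 ± 0.72) higher. Without replicate 3, the highest library, the log2 ratio of Fantasy Love at 6 °C was 7.64, and without replicate 2, the library that stood apart, it was 9.15. Without Oregon control replicate 3, the highest control, the Oregon ratios were 8.40 and 8.08, and without Oregon at 4 °C replicate 1 the latter was 6.84.

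In the controls ACO1 was 3.67-fold lower in Fantasy Love than in Oregon, with no overlap. In the cold, the 2 cultivars overlapped, with Fantasy Love 1.98-fold lower at 6 °C and 1.92-fold lower at 4 °C. The log2 response of Fantasy Love minus that of Oregon was 0.89 ± 1.65 at 6 °C and 0.93 ± 1.45 at 4 °C (SD), smaller than the spread between libraries. By the deposited abundance per length (TPM), ACO1 ranked 48 to 170 of 132108 in the Oregon cold libraries. In Fantasy Love it ranked 64 to 1204 at 6 °C and 118 to 345 at 4 °C, against 15010 to 51023 in the 6 controls. ACO1 made up 0.98% to 3.52% of the counts of its family (9 genes named ACC oxidase or homolog) in the Oregon controls and 82.2% to 89% in the Oregon cold libraries. In Fantasy Love the share went from 0.459% to 0.761% in the controls to 41.6% to 89.2% in the cold.

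EBF1 was present at 25 °C, and under TMM 1 of the 4 cold groups, Oregon at 6 °C, lay above its controls without overlap. The Oregon controls held 32.6, 32.5 and 31.7 CPM. At 6 °C the Oregon libraries held 159, 141 and 119 CPM, all above every other library of the series, and the mean of 139 ± 20.2 CPM was 4.32-fold higher than in the controls (log2 ratio 2.11 ± 0.21). At 4 °C they held 39.6, 33.8 and 30.3 CPM. That group lay 4.03-fold below 6 °C, without overlap. Under TMM it overlapped its controls, with a log2 ratio of 0.10, but this depends on scaling. The ratio was 0.45 with library size alone and 0.50 with the deposited TPM. By TPM the group lay wholly above its controls, at 29.05, 29.21 and 23.38 against 19.22, 18.99 and 19.54. The Fantasy Love controls held 41.6, 43.6 and 46.9 CPM. At 6 °C the values were 28.3, 28.8 and 63.2 CPM, below the controls in replicates 1 and 2 and above them in replicate 3. The log2 ratio was -0.14 ± 0.72, and 0.05 without replicate 2. At 4 °C they were 34.9, 29.7 and 35.6 CPM, all below the controls, with a log2 ratio of -0.40 ± 0.16. This last direction also depends on scaling: with library size alone the ratio was 0.08, and with the deposited TPM it was 0.15. Relative to the median gene it was -0.79 under TMM and with library size alone, and the ratio of Oregon at 6 °C was 1.75 and 1.74. A change of scaling moves a gene and the median gene nearly alike. This likeness was thus fixed in advance and does not settle the direction.

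At 6 °C EBF1 was 3.48-fold lower in Fantasy Love than in Oregon, without overlap. In the controls it was 1.36-fold higher in Fantasy Love, also without overlap, and at 4 °C the cultivars overlapped. The log2 response of Fantasy Love minus that of Oregon was -2.25 ± 0.75 at 6 °C and -0.50 ± 0.26 at 4 °C.

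**Figure D1:**
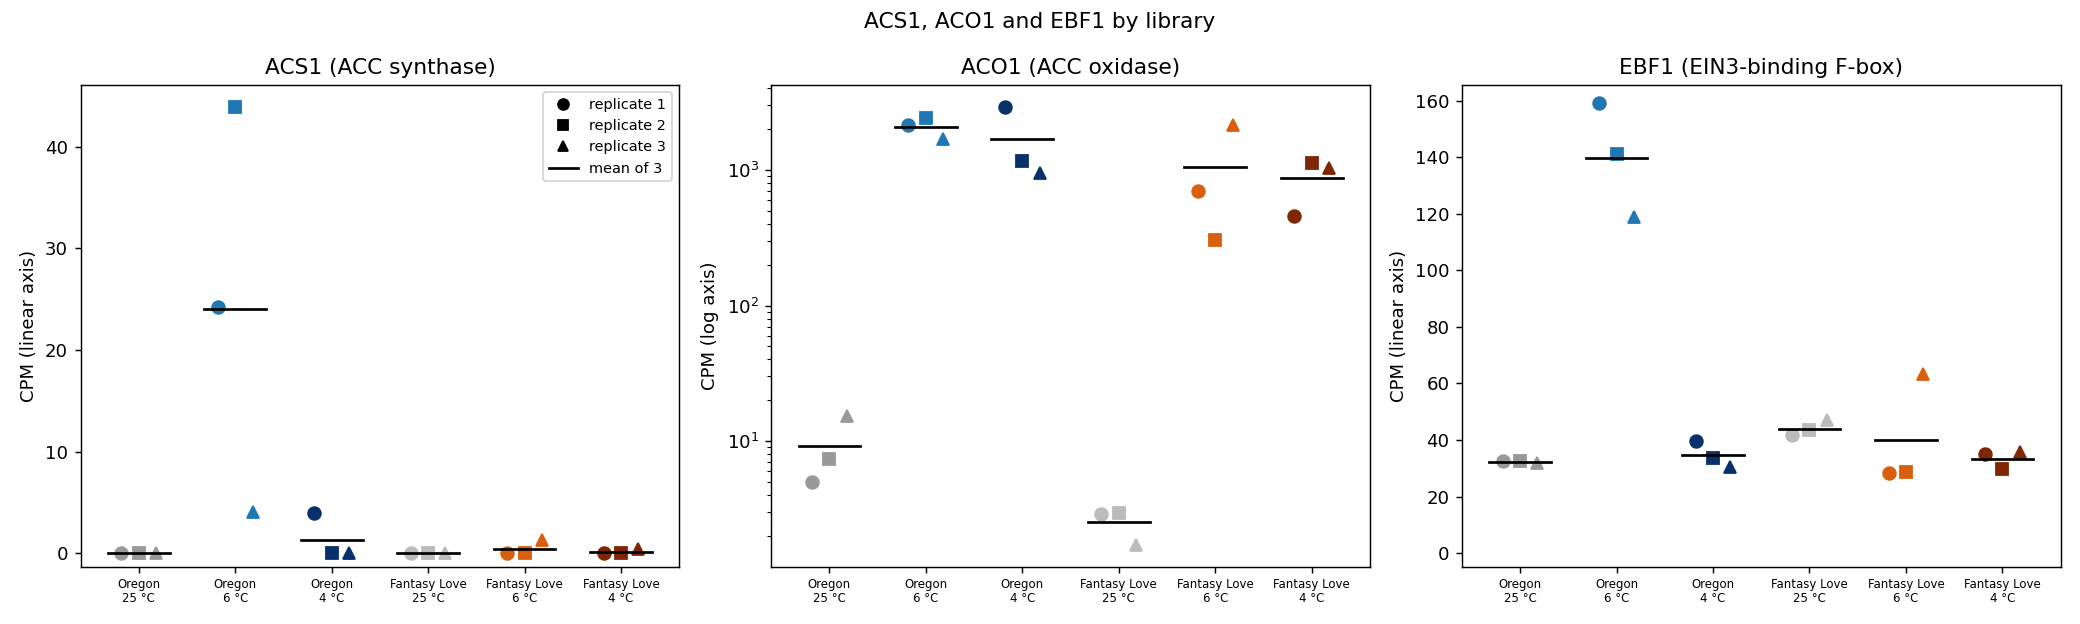
CPM (y) of ACS1 and EBF1 on linear axes and of ACO1 on a log axis in the 6 groups (x); each symbol is a library, its shape the replicate number, and the bar is the mean of 3. ACS1 is at 0 in all controls, ACO1 is between 302 and 2920 CPM in the cold, and EBF1 exceeds 100 CPM only in Oregon at 6 °C, where its lowest library is at 119 CPM.

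The order of levels differed between the 3 genes. For ACS1, Oregon at 6 °C came first and was separate from Oregon at 4 °C, while each later neighbour overlapped the next. For ACO1 the 4 cold groups followed each other with overlap (2090 ± 373 CPM in Oregon at 6 °C, 1680 ± 1080 in Oregon at 4 °C, 1060 ± 978 in Fantasy Love at 6 °C and 871 ± 361 in Fantasy Love at 4 °C). The Oregon controls (9.25 ± 5.42 CPM) and then the Fantasy Love controls (2.52 ± 0.693 CPM) came last, each separate from its neighbour. For EBF1, Oregon at 6 °C was separate from the next group and all later neighbours overlapped. Compared per length, as mean TPM in Oregon at 6 °C, the levels were 1130 for ACO1, 109 for EBF1 and 21.8 for ACS1. In the Oregon controls EBF1, at 19.2, exceeded ACO1, at 3.83, on the same scale.

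The replicates within a cold group were not alike, and some of the enzyme genes had the same highest library. In Oregon at 6 °C, replicate 2 was highest and replicate 3 lowest for ACS1, ACO1, another ACC synthase (ACS2, DN41499_c0_g2) and a further ACC oxidase (ACO, DN41080_c0_g3). In Oregon at 4 °C replicate 1 was highest for all 4, and in Fantasy Love at 6 °C replicate 3 was. In Fantasy Love at 4 °C replicate 3 was highest for 3 of them, while ACO1 was highest in replicate 2. The lowest library was not shared in Fantasy Love at 6 °C, where it was replicate 2 for ACO1 and replicate 1 for ACS2 and ACO. Some other genes named ACC oxidase or homolog went differently: DK-ACO1 DN51361_c1_g2 and At1g06650 DN52211_c0_g1 were highest in replicate 3 of Oregon at 6 °C and in replicate 2 of Fantasy Love at 6 °C. The homologs At1g06620 DN53147_c0_g2 and DN53147_c0_g5 were highest in replicate 2 of Oregon at 6 °C, as ACS1 and ACO1 were. In Fantasy Love at 6 °C they were highest in replicates 2 and 1. Of 4 marker genes of senescing tissue, STAY-GREEN (SGR, which starts chlorophyll breakdown) rose in all 4 comparisons with 25 °C, while 2 fell in all 4, and the median log2 fold changes of the 4 genes were -3.09, -3.27, -1.40 and -3.76. Their summed level was mostly SGR in the cold libraries other than Fantasy Love at 6 °C replicate 2, and mostly the other genes in the controls. It was 1130, 1210 and 756 CPM in Oregon at 6 °C, 468, 417 and 272 CPM at 4 °C, and 70.9 to 96.1 CPM in the controls. In Fantasy Love it was 87.4, 72.4 and 392 CPM at 6 °C, 114, 158 and 175 CPM at 4 °C, and 21.1 to 36.9 CPM in the controls. SGR itself was at 375 CPM in Fantasy Love at 6 °C replicate 3, the library with most ACS1, ACO1 and EBF1 of its group, against 73.2 and 26.6 CPM in the other 2. In Oregon at 6 °C it was highest in replicate 2 (1180 CPM), as ACS1 and ACO1 were, while EBF1 was highest in replicate 1. The part of tissue state in the 3 genes' levels was not tested.

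Parts of the same transcript may be split over several groups. ACS1 (1782 bases, 3 transcripts, best hit in Glycine max) shares its assembly component with ACS2 and with an unnamed group. Within that component, ACS1 took 23% to 52.4% of the counts of Oregon at 6 °C, but at most 15.3% in any library of the other groups. ACO1 (1832 bases, 12 transcripts, best hit in Solanum lycopersicum) took 99.1% or more of its component in every cold library. EBF1 (1132 bases, 1 transcript, best hit in Arabidopsis thaliana) shares its component with a longer EBF1 group of 2606 bases, DN54700_c2_g4, and with unnamed groups. The shorter group took 28.3% to 30.2% of the component in the Oregon controls and 54.4% to 56.8% in Oregon at 6 °C. Summed over the component, the log2 ratio in Oregon at 6 °C was 1.18 for EBF1 and 3.19 for ACS1. The table holds no sequence, so whether these groups are 1 gene or several was not tested, and none is printed.

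The rest of the pathway was tested with edgeR's quasi-likelihood method. It comprises 59 genes found by protein name, 56 of them past the low-count filter. Calls needed a Benjamini-Hochberg adjusted p under 0.05 over all 51670 tested genes and a log2 fold change of 1 or more in either direction. Log2 fold changes are given ± SE. In Oregon at 6 °C against 25 °C, 15 of the 56 rose and 11 fell, while 28.3% of all tested genes rose and 20.1% fell. In Oregon at 4 °C 10 rose and 14 fell, against 28.4% and 20.6% of all genes. In Fantasy Love 12 rose and 8 fell at 6 °C (all genes 23.8% and 16.6%; 11 and 7 without replicate 2, which stood apart), and 13 rose and 8 fell at 4 °C (28.5% and 21.6%). The median log2 fold changes of the 56 genes, -0.13, -0.28, 0.05 and 0.09 in the same order, were below those of all genes (0.36, 0.39, 0.30 and 0.39). These shares of the pathway were not tested against the background. With library size alone the counts of genes that rose and fell became 20 and 8, 14 and 9, 13 and 4, and 19 and 7. The background moved too under that scaling. Rises made up 67.2%, 67.4%, 67.4% and 68.8% of the calls over all genes. Under TMM they made up 58.4%, 58%, 58.8% and 56.9%.

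**Figure D2:**
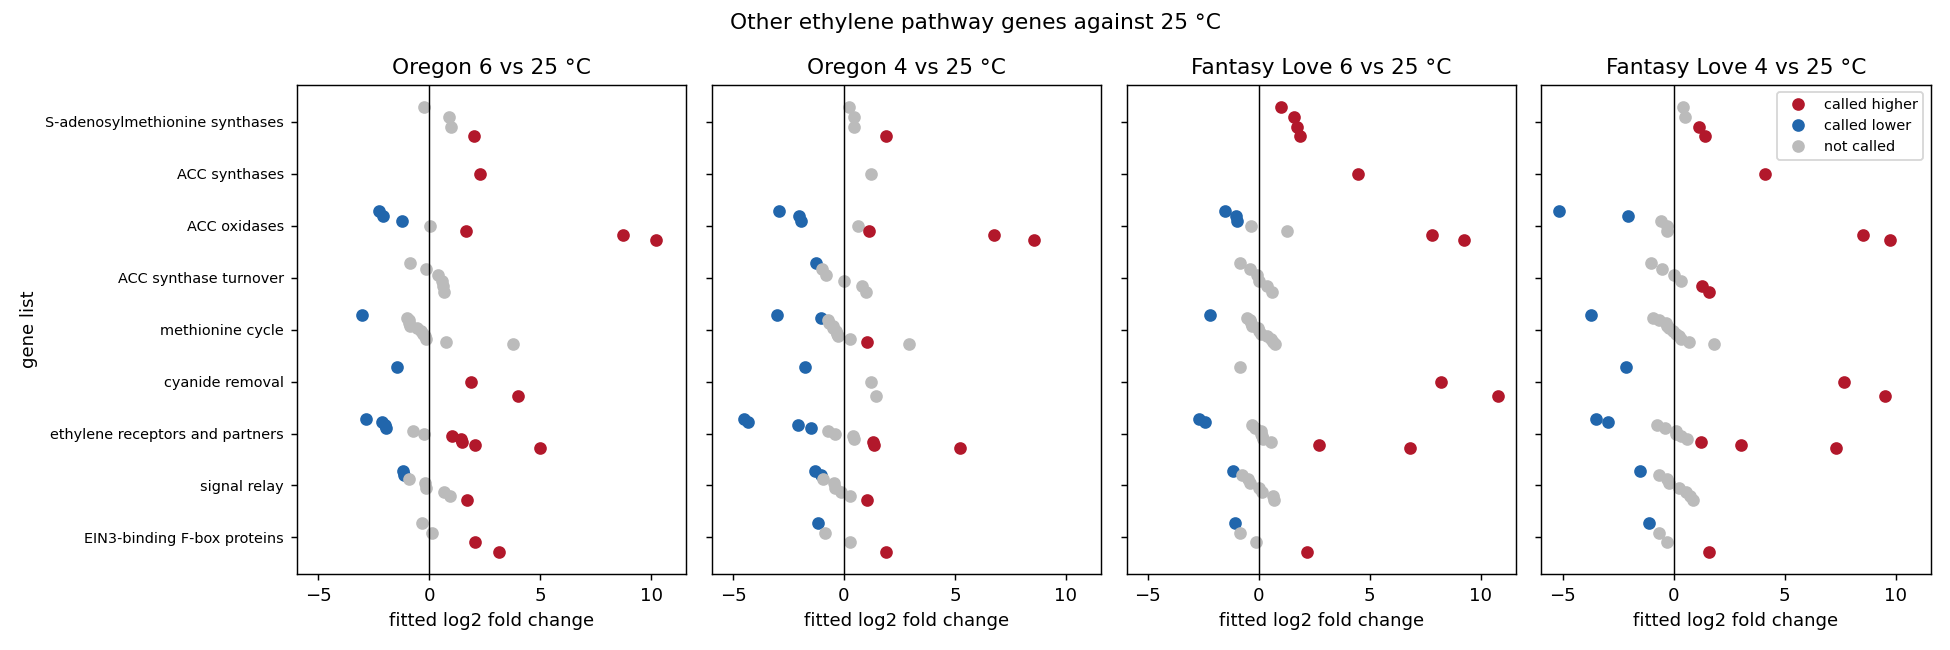
Fitted log2 fold change (x) of the 56 other ethylene pathway genes by list (y) in the 4 comparisons with 25 °C; each point is a gene, red where it was called higher, blue where called lower and grey where not called. The genes furthest to the right are ACC oxidases in Oregon, and ACC oxidases and cyanoalanine synthases in Fantasy Love. Some of these positions depend on the fit, where the controls held 0 to 3 counts.

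Of the formation enzymes, ACS2 was the one other ACC synthase in the table. Its 3 libraries held 6.58, 4.59 and 6.24 CPM in the Oregon controls, 32.9, 39.8 and 13.5 CPM at 6 °C and 21.7, 13.6 and 4.91 CPM at 4 °C. The groups at 6 °C and 25 °C did not overlap, and ACS2 rose by 2.31 ± 0.64 (edgeR, adjusted p = 0.0056). At 4 °C it overlapped the controls and was not called (1.21 ± 0.62, adjusted p = 0.107). In Fantasy Love it went from 0.255 to 0.326 CPM in the controls to 2.76, 4.35 and 12.3 CPM at 6 °C and 1.32, 4.96 and 8.86 CPM at 4 °C. Both changes were called (4.46 ± 0.79 and 4.11 ± 0.79). Without replicate 3 of the cold group they were 3.59 and 3.43.

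The ACC oxidase list held 8 other genes, 7 of them tested. In Oregon 3 rose and 3 fell at both temperatures, while 28.3% and 28.4% of all tested genes rose and 20.1% and 20.6% fell. In Fantasy Love 2 rose at both while 3 fell at 6 °C and 2 at 4 °C, with 23.8% and 28.5% of all genes higher and 16.6% and 21.6% lower. ACO (DN41080_c0_g3, 611 bases) rose in all 4 comparisons. Each control group held 2 counts of it. It reached 80.6, 85.6 and 15.2 CPM in Oregon at 6 °C, a ratio of 1310 (95% counting interval 361 to 10800), and 52.9, 1.99 and 1.71 CPM at 4 °C, a ratio of 341 (94.2 to 2820). In Fantasy Love the ratios were 269 (74 to 2220) at 6 °C and 470 (130 to 3890) at 4 °C. Fitted rises of ACO at 4 °C were 5.20 without Oregon replicate 1 (8.54 with it) and 6.94 without Fantasy Love replicate 3 (8.54 with it). Both of the control counts in Fantasy Love were in replicate 1, without which the fitted rises were 10.55 and 11.28 in place of 7.81 and 8.54. Falling genes in this list were DK-ACO1 (DN51361_c1_g2), a further ACC oxidase, and relatives named only as homologs. The homolog At1g06650 DN52211_c0_g1 fell in Oregon, by 2.25 ± 0.30 at 6 °C and by 1.94 ± 0.29 at 4 °C, and was not called in Fantasy Love. DK-ACO1 went from 21.9 ± 3.68 to 5.15 ± 1.39 and 2.92 ± 0.843 CPM in Oregon, and from 64.8 ± 21.9 to 22.8 ± 12.9 and 1.81 ± 0.0927 CPM in Fantasy Love. The log2 fold changes were -2.09 ± 0.38 and -2.91 ± 0.39 in Oregon and -1.51 ± 0.37 and -5.16 ± 0.43 in Fantasy Love, all called. The homolog At1g06620 DN53147_c0_g2 also fell in all 4 comparisons (-1.20 and -2.02 in Oregon, -2.08 in Fantasy Love at 4 °C). In Fantasy Love at 6 °C it sat at the fold minimum, and the call was lost under several settings. The homolog DN53147_c0_g5 rose in Oregon at 6 °C (1.68 ± 0.57) but was at 0.81 without replicate 2 of that group. It was not called then, nor without control replicate 1 or 2.

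Upstream, the 4 S-adenosylmethionine synthases, which supply the substrate of ACC synthase, rose or were not called. The one with the highest CPM, SAMS DN55548_c1_g1, held 421 to 482 CPM in the Oregon controls. It reached 1900, 2340 and 1180 CPM at 6 °C and 2220, 1320 and 1380 CPM at 4 °C, rising by 2.03 ± 0.47 and 1.89 ± 0.47. In Fantasy Love it held 421, 399 and 148 CPM at 25 °C, 716, 663 and 2100 CPM at 6 °C and 449, 914 and 1220 CPM at 4 °C. It rose by 1.85 ± 0.47 (1.09 without replicate 3) and 1.42 ± 0.46, and the rise at 4 °C was not called without control replicate 3 or without replicate 3 of the cold group. All 4 rose in Fantasy Love at 6 °C, by 1.02 to 1.85, against 1 of 4 in Oregon (all tested genes 23.8% and 28.3%). That difference between cultivars was not called for any of them. The gene with the smallest of these rises, METK5 DN50202_c0_g1, was not called without control replicate 3 or without replicate 2 or 3 of the cold group.

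The list of the methionine cycle, which returns the sulfur part of the substrate to methionine, held 12 tested genes. Of these 1 fell in Oregon at 6 °C and in both Fantasy Love comparisons, and 1 rose while 2 fell in Oregon at 4 °C. Over all tested genes, 23.8% to 28.5% rose and 16.6% to 21.6% fell in these comparisons. The gene that fell in all 4 was mtnN DN45207_c0_g3, a nucleosidase that splits methylthioadenosine. It went from 36.8 ± 10.2 to 4.46 ± 1.56 and 4.62 ± 0.726 CPM in Oregon, and from 69.3 ± 13.5 to 15.1 ± 6 and 5.20 ± 2.2 CPM in Fantasy Love. The gene of the list with the highest mean CPM, the methionine synthase Os12g0623900 DN57025_c1_g1, was not called in any of the 4 comparisons. The dioxygenases of the cycle, DN43428_c0_g3 and DN47495_c0_g4, are outside the list because the table spells their names differently. EIN2 was missed in the same way. Of these 3 genes, 1 rose and 1 fell in each Fantasy Love comparison, and 1 fell in Oregon at 6 °C.

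Cyanoalanine synthases, which remove the cyanide made by ACC oxidase, gave called differences between the cultivars' responses. PCAS-1 DN51980_c1_g1 held 236, 226 and 189 CPM in the Oregon controls but 1.55, 0.869 and 1.21 CPM in the Fantasy Love controls. At 6 °C it held 813, 1050 and 580 CPM in Oregon and 472, 41 and 578 CPM in Fantasy Love, and at 4 °C 765, 308 and 434 CPM and 146, 165 and 443 CPM. The low value at 6 °C, 41 CPM, is that of replicate 2, the library that stood apart. PCAS-1 rose by 8.22 ± 0.84 and 7.69 ± 0.82 in Fantasy Love and by 1.91 ± 0.62 in Oregon at 6 °C. The rise at 4 °C in Fantasy Love was 7.02 without replicate 3. The rise in Oregon had an adjusted p of 0.0506 without Oregon control replicate 3 (edgeR). Its neighbour CAS1 DN51980_c1_g2 was at 0 counts in the Fantasy Love controls. It was at least 216-fold higher at 6 °C and at least 90.4-fold higher at 4 °C (fitted 10.77 and 9.52, or 9.87 and 8.78 without replicate 3 of the cold group), and it rose in Oregon at 6 °C (4.02 ± 0.96). Another PCAS-1, DN45060_c0_g1, fell in 3 of the 4 comparisons (-1.42 and -1.75 in Oregon, -2.17 in Fantasy Love at 4 °C).

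**Figure D3:**
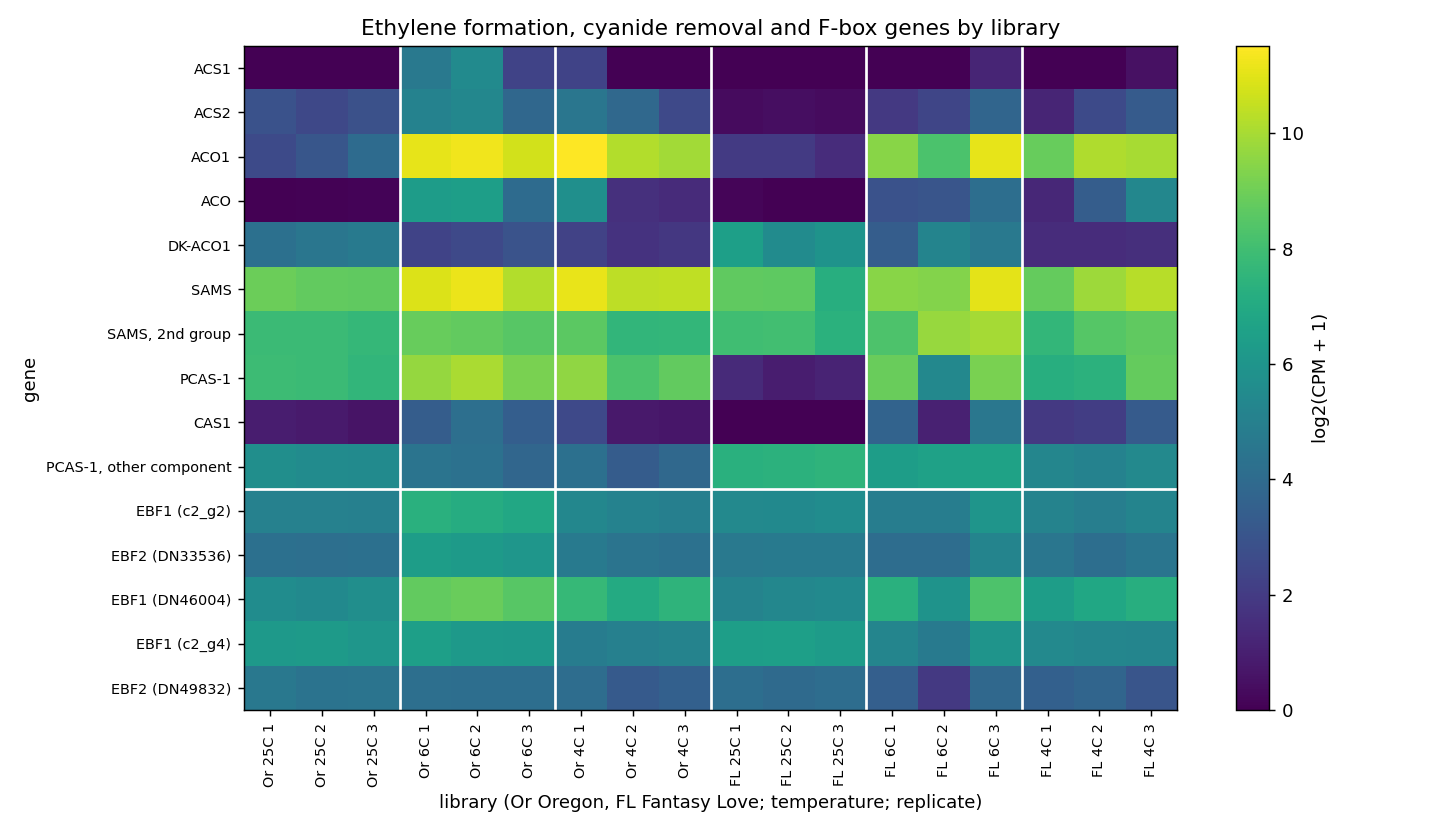
Level as log2(CPM + 1) (colour) of genes of ethylene formation, cyanide removal and the EIN3-binding F-box family (rows) in each of the 18 libraries (columns); white lines separate the 6 groups and the F-box genes. ACO1 reaches 302 CPM or more in every cold library, and PCAS-1 is bright in the Oregon controls (189 to 236 CPM) and dark in those of Fantasy Love (0.869 to 1.55 CPM).

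ETO1 and its relatives tag some ACC synthases for degradation. None of the 6 tested was called at 6 °C in either cultivar. Of all tested genes 28.3% rose and 20.1% fell there in Oregon, and 23.8% and 16.6% in Fantasy Love. In Fantasy Love at 4 °C ETO1 DN52295_c2_g3 and DN52295_c2_g6 rose by 1.59 ± 0.43 and 1.28 ± 0.33, and both were also higher than at 6 °C (1.65 ± 0.43 and 1.28 ± 0.33). In Oregon at 4 °C ETO1 DN52295_c2_g1 fell by 1.25 ± 0.43, a call that was lost without either of 2 control libraries (replicates 1 and 2) or either of 2 cold libraries (replicates 1 and 2), with an adjusted p of 0.0508 to 0.074 (edgeR).

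Of 11 genes for receptors and their partners, 5 rose and 4 fell in Oregon at 6 °C, 3 rose and 4 fell in Oregon at 4 °C, and in Fantasy Love 2 and then 3 rose while 2 fell at each temperature. The shares over all tested genes were 28.3% higher and 20.1% lower, 28.4% and 20.6%, 23.8% and 16.6%, and 28.5% and 21.6%. The receptor gene ETR2 DN53095_c0_g3 was high in the same group as EBF1. It held 29.6, 23.7 and 30 CPM in the Oregon controls, 76, 91 and 65.2 CPM at 6 °C and 41.5, 40.1 and 31 CPM at 4 °C. It rose by 1.48 ± 0.20 at 6 °C and then fell by 1.05 ± 0.19 from 6 °C to 4 °C. In Fantasy Love all 9 libraries held 34.4 to 50.5 CPM, and it was not called. A second group, ETR2 DN41070_c0_g4, fell in all 4 comparisons (-2.11 ± 0.47 and -4.30 ± 0.52 in Oregon, -2.44 ± 0.47 and -2.97 ± 0.48 in Fantasy Love). The value in Fantasy Love at 6 °C was -3.46 without replicate 3. The component neighbour of the first, ETR2 DN53095_c0_g5, also fell in all 4, from 7.22 ± 0.0262 to 1 ± 0.523 CPM in Oregon at 6 °C. ETR2 DN42140_c1_g2 held 38.3 ± 7.71 CPM in the Oregon controls, 105 ± 1.7 CPM at 6 °C and 96.8 ± 2.6 CPM at 4 °C. Both were chosen after their values were seen. RTE1 DN54654_c0_g1, which promotes signalling by the receptor ETR1 in Arabidopsis, rose in Oregon at 6 °C (2.07 ± 0.44) and in Fantasy Love at both temperatures (2.69 ± 0.46 and 3.05 ± 0.47). The one with the highest mean CPM, ERS1 DN52448_c1_g2, was not called in any of the 4 (-0.71, -0.71, -0.32 and 0.10).

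Among 8 tested genes of the signal relay, 5 are named CTR1, 2 EIN3 and 1 EIL3. CTR1 DN56231_c2_g1 fell in all 4 comparisons (-1.12 ± 0.19 and -1.31 ± 0.19 in Oregon, -1.15 ± 0.19 and -1.5 ± 0.19 in Fantasy Love), and CTR1 DN51406_c1_g1 fell in Oregon (-1.16 ± 0.24 and -1.04 ± 0.24). With library size alone the first fell short of the fold minimum in Oregon and in Fantasy Love at 6 °C (-0.78, -0.94 and -0.91), as did the second in Oregon. EIN3 DN42535_c0_g1 rose in Oregon from 9.67 ± 0.787 to 31.5 ± 1.45 CPM at 6 °C (1.70 ± 0.27) and to 20.1 ± 3.97 CPM at 4 °C (1.05 ± 0.26, and 0.88 without replicate 1). The other, EIN3 DN55399_c1_g3, was at 223 ± 11.8 CPM in the Oregon controls and 428 ± 61.8 CPM at 6 °C, with a log2 fold change of 0.94 ± 0.19, under the fold minimum. EIN2 DN49449_c1_g1, outside the list because the table spells its name differently, was not called in any of the 4 comparisons (0.18, 0.11, 0.16 and 0.85).

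The F-box family held 4 other genes, and they did not move together. EBF2 DN33536_c0_g5 (920 bases) tracked EBF1 library by library: the ratio of their CPM, not corrected for length, was 1.55 to 1.9 in all 18. It rose in Oregon at 6 °C by 2.07 ± 0.26 and fell from there to 4 °C by 1.79 ± 0.26, with no call in Fantasy Love. Because it tracks the chosen gene this closely, and the 2 groups may be pieces of 1 transcript, its test is not independent of the choice. EBF1 DN46004_c0_g1, a separate and longer group (4003 bases), rose in all 4 cold groups. It held 43.4 to 49.8 CPM in the Oregon controls, 429, 465 and 362 CPM at 6 °C and 209, 130 and 179 CPM at 4 °C, rising by 3.16 ± 0.41 and 1.88 ± 0.39. In Fantasy Love it held 34.8 to 42.9 CPM, then 155, 59.3 and 312 CPM, then 84.9, 114 and 147 CPM, rising by 2.18 ± 0.39 and 1.57 ± 0.38. Without Fantasy Love at 6 °C replicate 3 the first of these was 1.46.

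EBF1 DN54700_c2_g4, the component neighbour with the same protein name as the described EBF1, did not rise anywhere. It was not called in Oregon at 6 °C (70.3 ± 5.49 to 77.6 ± 10.2 CPM, 0.14 ± 0.24). It fell in Oregon at 4 °C by 1.18 ± 0.24 and in Fantasy Love by 1.05 ± 0.24 at 6 °C and 1.13 ± 0.24 at 4 °C. With library size alone these 3 were -0.82, -0.78 and -0.64, under the fold minimum, and without Fantasy Love at 6 °C replicate 2 the second was -0.86. EBF2 DN49832_c1_g1 was not called in any of the 4. Unnamed groups of the described EBF1's component are outside the lists, so only levels are given. DN54700_c2_g1 (978 bases) held 4.92 ± 1.28, 31.2 ± 4.02 and 11.3 ± 2.54 CPM at 25, 6 and 4 °C in Oregon. In Fantasy Love it held 10.9 ± 2.39, 9.79 ± 4.05 and 9.13 ± 0.925 CPM. It was thus also highest in Oregon at 6 °C. DN54700_c2_g3 was not, with 2.63 ± 0.149, 1.8 ± 0.518 and 1.91 ± 0.61 CPM in Oregon.

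**Figure D4:**
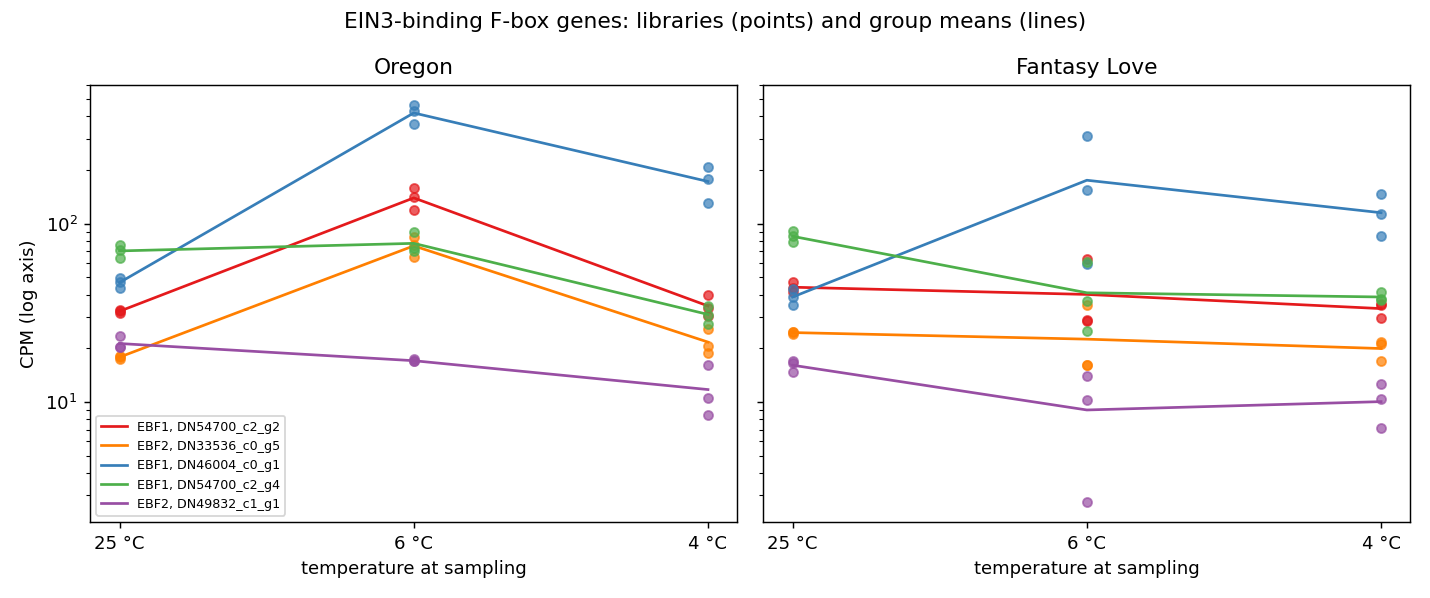
CPM on a log axis (y) of 5 EIN3-binding F-box genes at 25, 6 and 4 °C (x) in Oregon and Fantasy Love; points are libraries and lines join group means. EBF1 DN54700_c2_g2 and EBF2 DN33536_c0_g5 run in parallel and peak in Oregon at 6 °C, EBF1 DN46004_c0_g1 is higher in all 4 cold groups, and EBF1 DN54700_c2_g4 shows no such peak.

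From 6 °C to 4 °C, 0 of the 56 pathway genes rose and 6 fell in Oregon by edgeR, with 0.91% and 1.32% of all genes called higher and lower. At an unadjusted p under 0.05 by edgeR, 3 of the 56 were higher and 15 lower. Over all genes, 7431 of 51670 passed that threshold in either direction. Among the tests and scalings tried DESeq2's Wald test called 1 of the 56 higher and limma 0. The 6 were EBF2 DN33536_c0_g5, EBF1 DN54700_c2_g4, ETR2 DN53095_c0_g3 and DN41070_c0_g4, RTE1 and ETO1 DN52295_c2_g1. The fall of that EBF2 is not independent of the choice of the described EBF1. The count of 6 was 2 without Oregon at 6 °C replicate 2 or without Oregon at 4 °C replicate 3. In Fantasy Love 2 rose and 5 fell, with 1.83% and 7.19% of all genes called. Those that fell were DK-ACO1 (-3.65 ± 0.41), the homolog At1g06620 DN53147_c0_g2 (-1.08 ± 0.20), SAMS DN55548_c1_g2 (-1.16 ± 0.37), mtnN and PCAS-1 DN45060_c0_g1. The count that rose was 0 without Fantasy Love at 4 °C replicate 3.

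The difference between the cultivars' responses was tested as an interaction. At 6 °C the response was higher in Fantasy Love for 4 of the 56 genes and lower for 3, with 5.06% and 3.97% of all genes called. At 4 °C it was higher for 5 and lower for 2, with 3.86% and 5.04%. In the F-box family the response at 6 °C was lower for EBF2 DN33536_c0_g5 (-2.20 ± 0.36) and EBF1 DN54700_c2_g4 (-1.20 ± 0.34). The test of that EBF2 is not independent of the choice of the described EBF1. For the receptor gene ETR2 DN53095_c0_g3 the response was also lower at 6 °C (-1.29 ± 0.27). PCAS-1 DN51980_c1_g1 responded more in Fantasy Love at both temperatures (6.32 ± 0.95 and 6.48 ± 0.96), from its far lower control level. ACO was not called, with a wide error at 6 °C (-2.41 ± 4.47). ACS2 was at 2.16 ± 0.99 and 2.90 ± 0.99, also not called.

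The ethylene-responsive transcription factors, a family of which many members answer to signals other than ethylene, were kept apart. In Oregon 29 of 64 rose and 11 fell at 6 °C, with 25 and 12 at 4 °C (all tested genes 28.3% and 20.1%, then 28.4% and 20.6%). In Fantasy Love the counts were 30 and 8 at 6 °C, and 28 and 12 at 4 °C (all genes 23.8% and 16.6%, then 28.5% and 21.6%). Their median log2 fold changes were 1.04, 1.18, 1.78 and 1.28, beside 0.36, 0.39, 0.30 and 0.39 over all genes. The one with the highest mean CPM, ERF5 DN54839_c0_g1, went from 62.7 ± 18.2 CPM to 1220 ± 242 and 1190 ± 337 CPM in Oregon, and from 41.3 ± 9.31 to 362 ± 64.4 and 385 ± 125 CPM in Fantasy Love. Between 6 °C and 4 °C in Oregon its log2 fold change was -0.03 ± 0.29, not called.

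Genes with the most similar course over the 18 libraries were sought among genes with a protein name that passed the filter, by the root mean square (RMS) difference of centred log2 CPM. For EBF1, EBF2 DN33536_c0_g5 was nearest (RMS 0.08), then a guanylate kinase GK-2 (0.29), the putative clathrin assembly protein At4g40080 (0.39), the probable lipid flippase ALA7 (0.40) and a retrotransposon polyprotein (0.41). GK-2 held 13 ± 2.01, 50.8 ± 13.6 and 13.8 ± 4.29 CPM at 25 °C, 6 °C and 4 °C in Oregon. For ACO1 the nearest were the receptor-like kinase At1g74360 (0.54), the ubiquitin ligase PUB23 (0.61), the carbonic anhydrase ACA7 (0.68), Crnkl1 (0.71) and a cytosolic pyruvate kinase (0.74). At1g74360 went from 0.958 ± 0.272 to 298 ± 67.6 and 107 ± 32.6 CPM in Oregon. ACS1 had no near neighbour: the pectate lyase-like gene At1g11920 came first (1.31), followed by the antiporter CHX19 (1.38), ERF095 (1.45), the homeobox gene ATHB-40 (1.48) and HCT4 (1.49). ERF095 was at 10.1 ± 4.44 CPM in Oregon at 6 °C and at or below 1.12 CPM on average in the other groups. The 3 described genes were less alike: the RMS difference was 2.22 between ACS1 and EBF1, 3.25 between ACS1 and ACO1 and 3.71 between ACO1 and EBF1.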

How the data were processed

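Leaf RNA of 18 libraries was extracted with Trizol and sequenced by standard Illumina protocols, per the labels' protocols. Reads were trimmed with cutadapt 1.9, per the submitters' processing notes. The identifiers follow the Trinity assembler. For its version and for the quantification tool, the sources used here give nothing. The authors deposited expected counts, not normalised and with decimals in 4.21% of values, and a second value that reads as abundance per length (TPM), judged from its sums. Per the file headers, Length is in bases (201 to 16127). Protein names are the table's best hits in other species.

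Expected counts were rounded for the tests. Genes passing filterByExpr (minimum count 10, minimum total 15; 51670 of 132108) entered 1 quasi-likelihood model of 6 group means in edgeR 4.0.16 (R 4.3.3) with TMM. The SE is the absolute log2 fold change over the square root of F. Ratios of the 3 described genes carry an SD propagated from the libraries. Groups with at most 3 counts were set to 3 counts, over the whole group, for bounds. Intervals cover counting error only. Likeness used a prior count of 2. The code was tested on simulated data.

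The 3 genes, the pathway lists and the marker lists were chosen with earlier results of these data known. In lists of 8 or fewer tested genes any could be named. In longer lists these were the most abundant gene and, per comparison, the called gene with the lowest adjusted p; other receptor genes named were picked after their values were seen. Alternatives were DESeq2 1.42.0 size factors and Wald test, library size alone, quantile normalisation with limma 3.58.1, other filters, a test without a fold minimum, a fit of only the groups compared, a replicate block, TPM, sums over related groups, group medians and leaving out each library. Another 2 settings, which change the words of the pathway list, were added after seeing the data. Figures used matplotlib 3.10.9. Results of 1 further gene are not reported here, though it is included in the counts over lists.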

Additional observations from a re-analysis of the deposited data

Results flagged for a closer look

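The following genes of the ethylene pathway differed between the cultivars in their response to cold by edgeR's interaction test, adjusted over all tested genes. Values are the log2 response of Fantasy Love minus that of Oregon, ± SE, each from 3 libraries in each of the 4 groups involved. EBF2 DN33536_c0_g5 tracked the described EBF1 in every library, so its test is not independent of the choice of that gene. At 6 °C the response was lower in Fantasy Love for EBF2 DN33536_c0_g5 (-2.20 ± 0.36, adjusted p = 0.00122), ETR2 DN53095_c0_g3 (-1.29 ± 0.27, adjusted p = 0.00683) and EBF1 DN54700_c2_g4 (-1.20 ± 0.34, adjusted p = 0.0321). It was higher for PCAS-1 DN51980_c1_g1 (6.32 ± 0.95, adjusted p = 0.000613), the receptor partner RTH DN36954_c1_g3 (2.04 ± 0.47, adjusted p = 0.0117), the ACC oxidase homolog At1g06650 DN52211_c0_g1 (1.9 ± 0.40, adjusted p = 0.00699) and ERS1 DN34432_c3_g6 (1.84 ± 0.52, adjusted p = 0.0328). At1g06650 fell from 335 ± 70.2 to 70.4 ± 6.18 CPM in Oregon and stood at 195 ± 42.7 and 153 ± 87 CPM in Fantasy Love.

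At 4 °C the response was lower in Fantasy Love for DK-ACO1 DN51361_c1_g2 (-2.24 ± 0.54, adjusted p = 0.0129) and the homolog At1g06620 DN41847_c0_g1 (-1.71 ± 0.46, adjusted p = 0.0243). It was higher for PCAS-1 DN51980_c1_g1 (6.48 ± 0.96, adjusted p = 0.000378), RTE1 DN54654_c0_g1 (2.60 ± 0.63, adjusted p = 0.0134), At1g06650 DN52211_c0_g1 (1.64 ± 0.40, adjusted p = 0.0152), ERS1 DN34432_c3_g6 (1.68 ± 0.52, adjusted p = 0.0484) and CAS1 DN51980_c1_g2 (8.09 ± 2.20, adjusted p = 0.0288). The last value depends on the prior count, because CAS1 had no counts in the Fantasy Love controls.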

How the results depend on the processing

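Of 91 called pairs of a pathway gene and a comparison with 25 °C (36 genes), 69 kept their call and direction under every alternative that gave a value, and none reversed. By setting, 13 of 91 lost their call with library size alone, 5 with only the groups compared, 4 with quantile normalisation and limma, 3 each with DESeq2 size factors or the Wald test, and 1 without the low-count filter.

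Summed over the assembly component, the log2 ratios to 25 °C were 3.19, 1.35 and 4.18 for ACS1 in Oregon at 6 °C, Oregon at 4 °C and Fantasy Love at 4 °C, and 6.97 and 6.69 for ACO1 in Fantasy Love at 6 °C and 4 °C. The response differences of ACO1 then turned to -0.18 and -0.14, the ratios of EBF1 became 1.18 in Oregon at 6 °C, -0.49 in Oregon at 4 °C and -0.80 in Fantasy Love at 4 °C, and its ratio of 4 °C to 6 °C in Oregon became -1.67. Summed over genes with the same protein name, EBF1 gave 0.67 in Oregon at 4 °C, 0.61 and 0.16 in Fantasy Love, -1.42 for 4 °C against 6 °C in Oregon and a response difference of -1.48 at 6 °C. With library size alone EBF1 gave 2.43 and 0.45 in Oregon and 0.11 and 0.08 in Fantasy Love, and with TPM 2.51, 0.50, 0.14 and 0.15. Between 4 °C and 6 °C in Fantasy Love, TPM gave 0.29 for ACS1 and 0 for EBF1, and group medians gave 0.56 for ACO1 and 0.27 for EBF1. Medians gave a response difference of -0.27 for ACO1 at 6 °C. The causes were not tested.

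For counts of pathway genes, library size alone left 9 that fell in Oregon at 4 °C, 4 in Fantasy Love at 6 °C and 3 between 6 °C and 4 °C in Fantasy Love, and quantile normalisation also left 3 there. Without a fold minimum 18 fell in Oregon at 6 °C. Between 6 °C and 4 °C in Oregon, 1 rose with the Wald test, with only the groups compared or with the replicate block. With only the groups compared 0 rose and 2 fell between 6 °C and 4 °C in Fantasy Love. Leaving homologs out of the ACC oxidases left 1 lower response at 4 °C.

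Leaving out single libraries gave these ranges of log2 ratios. For ACS1 they were 7.74 to 9.01 and 3.66 to 4.90 in Oregon at 6 °C and 4 °C, 2.31 to 3.52 and 0.64 to 1.85 in Fantasy Love, -8.58 to -3.43 for 4 °C against 6 °C in Oregon and -2.55 to 0.62 in Fantasy Love. The ranges against 25 °C of Oregon at 4 °C and of both Fantasy Love groups leave out 1 case each, since without the library that holds every ACS1 count of the cold group (replicate 1 in Oregon, replicate 3 in Fantasy Love) no ratio could be given. For ACO1 they were -0.72 to 0.79 for 4 °C against 6 °C in Fantasy Love and -0.18 to 1.33 for the response difference at 6 °C, the extremes 0.79 and -0.18 without Fantasy Love at 6 °C replicate 3. For EBF1 they were -0.01 to 0.19 in Oregon at 4 °C, -0.62 to 0.06 in Fantasy Love at 6 °C and -0.46 to 0.22 for 4 °C against 6 °C in Fantasy Love. Counts of pathway genes ranged from 0 to 1 risen and 2 to 8 fallen between 6 °C and 4 °C in Oregon, and from 0 to 3 risen in Fantasy Love. Lower responses at 6 °C ranged from 2 to 5. At 4 °C higher responses ranged from 3 to 6 and lower ones from 1 to 2.

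No pairing of libraries by replicate number was detected. Over the 18 same-numbered pairs within a cultivar, deviations from the group means correlated at -0.0659 to 0.104. A shared effect that is small beside the spread between libraries could be missed this way. With the replicate block 90 of 91 calls were kept.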
